A study of Arabidopsis thaliana with 16 samples.

Results

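The genes described here are those that the authors' annotation of the array marks with the Gene Ontology process "response to fructose stimulus". A probe set entered if it belonged to the array's main category and carried that term without the terms for the response to brassinosteroid or to endoplasmic reticulum stress. Of 147 main-category probe sets with the term, 6 were left out for the endoplasmic reticulum term and 0 for the brassinosteroid term. ASN1, TPS9, DIN10 and AKINBETA1, 4 sugar-starvation genes, were left out by name. This left 137 probe sets for 136 loci among 28403 main-category probe sets. SBE2.1 and SBE2.2 carry only the narrower term for the cellular response to fructose and were not counted. The term is annotation, not a measurement: 123 of the 137 hold it by computational analysis alone, and 14 have experimental evidence for it, among them the cytosolic fructose-1,6-bisphosphatase cyFBP, hexokinase HXK1, the G proteins XLG1 to XLG3, ABA2 and CTR1.

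The arrays read transcripts from rosettes of Arabidopsis thaliana that had grown for 3 weeks under 80 to 100 µmol of light (photons, per square metre and second) and had then spent 10 days at 8 µmol (low light, LL). Rosettes were harvested in LL or after transfer to 800 µmol (high light, HL), a transfer that the sample titles put at 60 min and the treatment protocol at 10 min. The plants were Col-0 wild type (WT), a sap3 knockout and a cml49 knockout, which lack a zinc-finger stress-associated protein and a calmodulin-like protein, by their labels. WT and sap3 have 3 single-replicate arrays in each light level, of 15 plants each, and WT and cml49 have 1 pooled array in each light level, of 45 plants from 3 replicates. The questions are how more light changed these transcripts and whether the change differed between the labelled genotypes. Values are log2 signals, so a difference of 1 is a doubling, and all 16 arrays have medians of 4.37 to 4.41. The mean signals of the 137 probe sets over the 12 single-replicate arrays ran from 1.90 to 12.10 with a median of 7.02, and 118 lay at or above 4.39, the median of all values.

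Fructose is released in leaves when invertase or sucrose synthase splits sucrose, and it re-enters metabolism once fructokinase or hexokinase has phosphorylated it. The vacuole is the main store of free fructose, filled by tonoplast monosaccharide transporters such as TMT1 and opened by SWEET17, a fructose facilitator. Sugars are also signals. Hexokinase HXK1 and the membrane protein RGS1 with its G protein GPA1 act in sugar sensing, while the kinase SnRK1 is active when sugar is scarce. In darkness or dim light leaves switch on genes for the breakdown of branched-chain amino acids and a group first found as dark-inducible (DIN) genes, and added sugar switches these genes off.

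The single-replicate arrays labelled WT_HL_2, sap3_LL_2 and sap3_HL_3 go against their labelled light level and are shown apart. HSP90.1, a heat- and light-inducible chaperone outside the set, had 9.80 and 9.77 in the other WT arrays in HL but 3.62 in WT_HL_2, 11.09 in sap3_LL_2 and 3.17 in sap3_HL_3. Each result is given for all 12 arrays as labelled and for the 9 without these 3. The 3 were set apart for their light state, so counting responsive genes in the 9 gives no independent evidence of a response to light. SAP3 had 4.85, 4.84 and 5.14 in WT and 4.21 and 4.05 in sap3 in LL, and 6.14 and 6.48 in WT and 5.06 and 5.28 in sap3 in HL. In these 9 arrays sap3 lay below WT at each light level without overlap, with differences of -0.81 in LL and -1.14 in HL, but neither difference passed over all probe sets (adjusted p = 0.475 and 0.549, limma). The arrays set apart had 3.94 in WT_HL_2, 6.98 in sap3_LL_2 and 3.74 in sap3_HL_3, so sap3_LL_2 was above every WT array and WT_HL_2 below all of the others labelled WT. CML49 was lower in the pools labelled WT (2.77 and 3.30) than in those labelled cml49 (3.97 and 4.23), and genotypes are named by label throughout. Rosette tissue showed in 5 leaf markers with mean signals of 10.78 to 13.19, while 5 root markers lay at 1.68 to 3.77 and 5 flower markers at 1.49 to 2.62, and in the 9 arrays no root or flower marker passed the test for light while 1 leaf marker, GLDP1, rose in both genotypes.

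In the 9 arrays, light moved about 1 member in 5, and most of those fell. In WT, 29 of 137 probe sets passed the test (limma, adjusted p under 0.05 over all probe sets), 23 lower and 6 higher in HL. These are 21.2% of the members against a background of 9.13% of all probe sets, with 16.8% against 4.14% for lower and 4.38% against 4.99% for higher. In sap3 the count was also 29, or 21.2% against 7.57%, with 24 lower (17.5% against 3.47%) and 5 higher (3.65% against 4.09%). The p-values measure the spread between samples of 15 plants each. Both genotypes shared 24 probe sets, 20 lower (14.6% against 2.53%) and 4 higher (2.92% against 3.35%), while 5 were called in WT alone, 5 in sap3 alone and 103 in neither. The median difference between HL and LL over the members was -0.10 in WT and -0.11 in sap3, against -0.02 over all probe sets in each. As a whole rosette was extracted, fewer cells of a type and less RNA per cell cannot be told apart.

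With all 12 arrays as labelled, 0 members and 0% of all probe sets passed in any of the 5 comparisons (limma). At an unadjusted p under 0.05, light gave 6 members in WT (4.38%, against 6.16% of all probe sets) and 2 in sap3 (1.46% against 3.14%). The counts in the 9 arrays also rest on few arrays, for the members as for all probe sets. The 29 calls in WT became 15 without WT_HL_1 and 18 without WT_HL_3, and the 29 in sap3 became 15 without sap3_HL_1, 18 without sap3_HL_2 and 17 without sap3_LL_3. In each genotype 13 of the 29 kept their call in every alternative tried, and no call changed its direction in any.

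**Figure D1:**
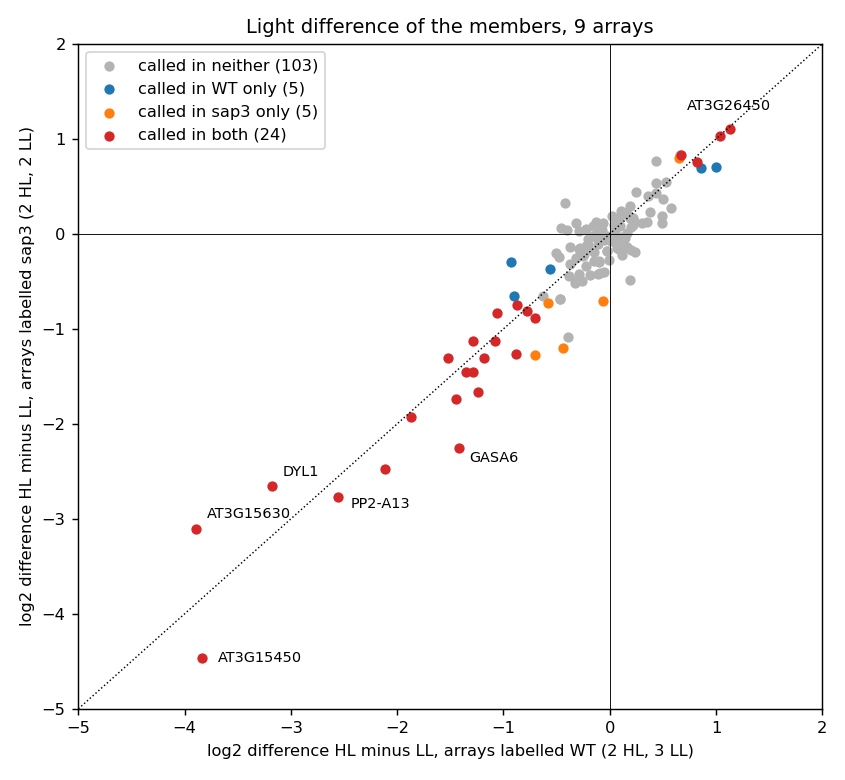
Each of the 137 probe sets is placed by its log2 difference between HL and LL in the arrays labelled WT (x axis, 2 HL and 3 LL arrays) and labelled sap3 (y axis, 2 HL and 2 LL arrays), with colour for the genotypes in which it passed the limma test and a dotted line of equality. Most points lie near 0, and a tail of probe sets called in both genotypes reaches down to -3.89 in WT and -4.46 in sap3, while the highest points stay near 1.

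Among the 4 dark-inducible and dormancy genes, AT3G15450 and DYL1 fell in HL in both genotypes. The 2 with a DIN name, SEN1 (DIN1) and DIN2, did not pass the test. The group median of -1.79 in WT and -1.87 in sap3 lies between these 2 pairs and describes neither. AT3G15450 (chromosome 3, 5212984 to 5214124; no source used here names the genome build of the coordinates) encodes a protein that the authors' annotation calls aluminium-induced, with YGL and LRDR motifs. Its log2 signal was 8.90, 9.0 and 8.67 in WT_LL_1 to WT_LL_3, and 5.01 and 5.02 in WT_HL_1 and WT_HL_3. In sap3_LL_1 and sap3_LL_3 it was 8.88 and 9.30, and in sap3_HL_1 and sap3_HL_2 it was 4.12 and 5.13, and the same order of arrays holds for every gene that follows. All 5 LL arrays lay above all 4 HL arrays. The arrays set apart gave 8.68 in WT_HL_2, 5.90 in sap3_LL_2 and 9.31 in sap3_HL_3, so both arrays labelled HL were at the LL values and the one labelled LL was nearer the HL values. By limma AT3G15450 fell by 3.84 in WT (SE 0.27, adjusted p = 1.75e-05) and fell by 4.46 in sap3 (SE 0.29, adjusted p = 1.77e-05), which is 14.3-fold and 22-fold less signal in HL. In pooled RNA AT3G15450 was at 9.59 in LL and 4.22 in HL for WT, and at 8.91 and 4.96 for cml49.

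DYL1 (chromosome 1, 9933884 to 9935271), whose transcript marks dormant buds and resting tissue, had 8.41, 8.80 and 8.22 in WT in LL and 5.24 and 5.35 in HL. Its values in sap3 were 8.49 and 8.11 in LL and 5.18 and 6.11 in HL. High and low light did not overlap, and sap3_LL_2 at 6.06 fell inside the range of the HL arrays, with WT_HL_2 at 8.75 and sap3_HL_3 at 8.10 near the LL arrays. The gene fell by 3.18 in WT (SE 0.27, adjusted p = 6.63e-05) and fell by 2.65 in sap3 (SE 0.30, adjusted p = 0.000434), or 9.06-fold and 6.28-fold (limma). Pooled DYL1 signals went from 8.34 in LL to 5.20 in HL in WT and from 8.31 to 5.74 in cml49. SEN1, the dark-induced senescence gene also known as DIN1, differed by -0.39 in WT (adjusted p = 0.566) and -1.09 in sap3 (adjusted p = 0.0929) and passed in neither (limma), with LL values of 8.65, 9.61 and 8.89 in WT that overlap 8.58 and 8.75 in HL. DIN2, a beta-glucosidase, stayed between 2.36 and 3.48 in every array but WT_HL_2, where it reached 7.37.

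Breakdown of amino acids was the group with the largest share of calls, 5 of 8 in each genotype, all lower in HL, with medians of -0.83 in WT and -0.97 in sap3. For this and every other role group, the background was 9.13% of all probe sets in WT and 7.57% in sap3. No group was tested against it. The 5 are the enzymes that take leucine and the other branched-chain amino acids apart: the aminotransferase BCAT-2, the E1 beta (DIN4) and E2 (BCE2) subunits of the branched-chain keto acid dehydrogenase, isovaleryl-CoA dehydrogenase (IVD) and the alpha subunit of methylcrotonyl-CoA carboxylase (MCCA). The 3 that did not pass act on other amino acids: LKR/SDH on lysine (-0.47 in WT and -0.69 in sap3), homogentisate dioxygenase HGO on tyrosine (-0.63 and -0.65) and threonine aldolase THA1 (-0.15 and -0.29). In the WT pools the 3 were lower in HL as well, by -1.27 for LKR/SDH, -1.01 for HGO and -0.42 for THA1. The 5 branched-chain genes had -1.98 (BCAT-2), -1.88 (MCCA), -1.82 (DIN4), -1.26 (BCE2) and -1.18 (IVD) there. In the cml49 pools the 3 had -0.55, -0.11 and -0.05, and the 5 had -1.59, -0.80, -0.82, -0.02 and -0.51, in the same orders. Whether the branched-chain genes differ from these 3 in their response was not tested.

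BCAT-2 (chromosome 1, 3288087 to 3290471) had a log2 signal of 6.0, 7.05 and 5.70 in WT in LL and 4.64 and 4.97 in HL. In sap3 it had 6.85 and 7.33 in LL and 5.0 and 5.69 in HL. The LL and HL arrays did not overlap, although WT_LL_3 at 5.70 and sap3_HL_2 at 5.69 lay side by side, and WT_HL_2 at 7.95 was the highest of all arrays. sap3_LL_2 was at 5.58 and sap3_HL_3 at 7.30. BCAT-2 fell by 1.45 in WT (SE 0.37, adjusted p = 0.0351) and fell by 1.74 in sap3 (SE 0.40, adjusted p = 0.0252) by limma, or 2.73-fold and 3.34-fold. The call in WT was lost without any 1 of WT_HL_1, WT_HL_3, WT_LL_1 and WT_LL_2, where leaving out any array in turn gave -1.72 to -1.04, and the call in sap3 without any 1 of sap3_HL_1, sap3_LL_1 and sap3_LL_3 (-2.09 to -1.40). For the pools of BCAT-2, WT gave 6.40 in LL and 4.42 in HL, and cml49 gave 6.45 and 4.86.

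MCCA (chromosome 1, 739679 to 744184) showed 7.13, 7.84 and 7.31 in WT in LL and 6.22 and 6.15 in HL. The sap3 arrays read 7.74 and 8.21 in LL and 6.08 and 6.56 in HL, again with no overlap between the light levels. The arrays set apart had 7.65 in WT_HL_2, 6.86 in sap3_LL_2 and 7.94 in sap3_HL_3, with sap3_LL_2 between the light levels and the others among the LL arrays. MCCA fell by 1.24 in WT (SE 0.24, adjusted p = 0.00904) and fell by 1.66 in sap3 (SE 0.26, adjusted p = 0.00349) by limma, and its call in WT was lost without WT_HL_1 or WT_HL_3 (-1.39 to -1.04 over all arrays left out in turn). The WT pools had 7.89 in LL and 6.01 in HL, and the cml49 pools 7.30 and 6.5. DIN4 fell by 1.08 in WT (SE 0.19, adjusted p = 0.00606) and fell by 1.13 in sap3 (SE 0.21, adjusted p = 0.0093), BCE2 fell by 0.78 in WT (SE 0.15, adjusted p = 0.00926) and fell by 0.81 in sap3 (SE 0.17, adjusted p = 0.0139) and IVD fell by 0.88 in WT (SE 0.23, adjusted p = 0.0433) and fell by 1.26 in sap3 (SE 0.26, adjusted p = 0.0137), all by limma. In WT, IVD lost its call without sap3_HL_1, sap3_HL_2, WT_HL_1, WT_HL_3 or WT_LL_2 (-1.02 to -0.62), BCE2 without WT_HL_1 (-0.86 to -0.70) and DIN4 without WT_HL_3 (-1.24 to -0.92). In sap3, IVD (-1.44 to -1.08) and BCE2 (-0.95 to -0.67) lost theirs without sap3_HL_1, sap3_HL_2 or sap3_LL_3, and DIN4 without sap3_HL_1 or sap3_LL_1 (-1.25 to -1.01).

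**Figure D2:**
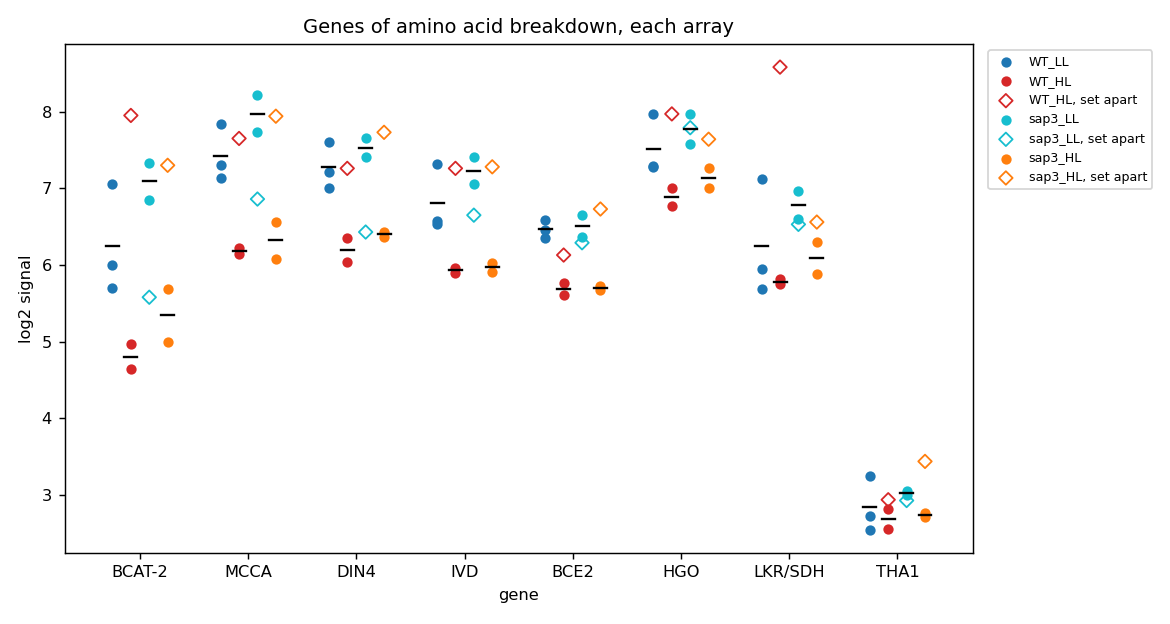
Log2 signal (y axis) of the 8 genes of amino acid breakdown (x axis) in each single-replicate array, with filled circles for the 9 arrays, open diamonds for the 3 set apart and black bars for the mean of the filled circles of a group. For BCAT-2, MCCA, DIN4, IVD and BCE2 the LL circles lie above the HL circles of both genotypes. The open diamonds of the 2 arrays labelled HL lie with or near the LL circles, BCAT-2 in WT_HL_2 at 7.95 above all of them. An exception is BCE2 in WT_HL_2, at 6.13 between the light levels.

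Transport proteins for sugars, amino acids and ions made up 10 members, of which 3 fell in each genotype and 0 rose. TMT1 (chromosome 1, 7244939 to 7248143), which pumps glucose and fructose into the vacuole, had 8.09, 8.31 and 8.24 in WT in LL and 6.99 and 6.86 in HL. Its sap3 values were 8.49 and 8.27 in LL and 6.74 and 7.13 in HL. Light levels were well apart, and the arrays set apart had 8.22 in WT_HL_2, 6.85 in sap3_LL_2 and 8.07 in sap3_HL_3. Of these, both labelled HL were near the LL arrays and the one labelled LL was among the HL arrays. TMT1 fell by 1.29 in WT (SE 0.16, adjusted p = 0.000784) and fell by 1.45 in sap3 (SE 0.18, adjusted p = 0.000866), or 2.45-fold and 2.73-fold less (limma), and kept both calls in every alternative. In pooled RNA TMT1 was at 8.16 in LL and 6.71 in HL for WT, and at 7.84 and 6.96 for cml49. SWEET17, the facilitator that lets fructose leave the vacuole, differed the other way by 0.44 in WT and 0.77 in sap3 but did not pass (adjusted p = 0.34 and 0.119, limma), although its LL values of 5.97, 5.15 and 5.86 in WT lay below the HL values of 6.05 and 6.16, as they did in sap3. The amino acid permease AAP2 fell by 1.06 in WT (SE 0.14, adjusted p = 0.00117) and fell by 0.83 in sap3 (SE 0.16, adjusted p = 0.0101), and AT2G40420, an amino acid transporter-like protein, fell by 0.87 in WT (SE 0.18, adjusted p = 0.0122) and fell by 0.75 in sap3 (SE 0.19, adjusted p = 0.0432) (limma). Without sap3_HL_2 or sap3_LL_1 the call of AAP2 in sap3 was lost (-0.95 to -0.69), and AT2G40420 lost its call in sap3 on leaving out any array but WT_LL_1 (-0.91 to -0.60) and its call in WT without WT_HL_1 or WT_HL_3 (-1.02 to -0.80).

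Of 12 members in redox, stress and protein turnover, 2 rose in both genotypes, 1 fell in both and 2 more fell in sap3 alone. PP2-A13 (chromosome 3, 22602910 to 22604582), a protein of the phloem protein 2 family, had 7.64, 8.10 and 7.56 in WT in LL and 5.16 and 5.26 in HL. In sap3 the signal was 7.87 and 8.18 in LL and 5.05 and 5.45 in HL. No LL array came near an HL array, while the arrays set apart had 7.97 in WT_HL_2, 5.75 in sap3_LL_2 and 8.03 in sap3_HL_3. PP2-A13 fell by 2.56 in WT (SE 0.20, adjusted p = 4.12e-05) and fell by 2.77 in sap3 (SE 0.22, adjusted p = 5.38e-05), or 5.9-fold and 6.82-fold (limma). Pooled PP2-A13 signals went from 8.45 in LL to 5.25 in HL in WT and from 8.21 to 5.21 in cml49, a drop of similar size in both. GLYI4, a glyoxalase I family protein, differed by -0.70 in WT (adjusted p = 0.136) and fell by 1.27 in sap3 (adjusted p = 0.0192), and the RING finger protein ATL8 differed by -0.58 in WT (adjusted p = 0.0579) and fell by 0.73 in sap3 (adjusted p = 0.0363), all by limma. The call of GLYI4 was lost without sap3_HL_1, sap3_HL_2 or sap3_LL_3 (-1.54 to -1.01), and that of ATL8 without any array but WT_LL_2 or WT_LL_3 (-0.89 to -0.57).

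A group of 34 members with mixed or unknown roles held 11 calls lower and 1 higher in WT, 9 lower and 2 higher in sap3, and some of the largest falls of the set. AT3G15630 (chromosome 3, 5296847 to 5297599), a protein without an assigned function in the authors' annotation, had 6.98, 6.98 and 7.08 in WT in LL and 2.83 and 3.42 in HL. In sap3 it had 7.03 and 6.51 in LL and 3.18 and 4.14 in HL. LL and HL lay more than 2 log2 units apart at their nearest, and the arrays set apart read 6.56 in WT_HL_2, 3.52 in sap3_LL_2 and 7.04 in sap3_HL_3. AT3G15630 fell by 3.89 in WT (SE 0.28, adjusted p = 2.52e-05) and fell by 3.11 in sap3 (SE 0.31, adjusted p = 0.000226), or 14.8-fold and 8.63-fold (limma). For the pools of AT3G15630, WT gave 7.51 in LL and 3.17 in HL, and cml49 gave 7.22 and 4.05. AT3G49790 (chromosome 3, 18468051 to 18469763), annotated as a carbohydrate-binding protein, went from 4.75, 5.12 and 5.06 in WT in LL to 2.68 and 3.05 in HL. For sap3 the values were 5.30 and 5.33 in LL against 2.24 and 3.42 in HL. Here too the light levels were apart, and the arrays set apart had 5.25 in WT_HL_2, 3.65 in sap3_LL_2 and 4.74 in sap3_HL_3. By limma AT3G49790 fell by 2.11 in WT (SE 0.29, adjusted p = 0.00132) and fell by 2.48 in sap3 (SE 0.32, adjusted p = 0.00108). The WT pools had 5.39 in LL and 3.21 in HL, and the cml49 pools 5.57 and 3.52.

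ACR9 (chromosome 2, 16507896 to 16510198), which carries ACT domains of the kind that bind amino acids, had 8.99, 9.70 and 8.96 in WT in LL and 7.25 and 7.44 in HL. The sap3 arrays had 9.28 and 9.56 in LL against 7.17 and 7.82 in HL. Only sap3_LL_2 at 8.31 lay between the light levels, while WT_HL_2 at 9.32 and sap3_HL_3 at 9.50 were among the LL arrays. ACR9 fell by 1.87 in WT (SE 0.26, adjusted p = 0.00131) and fell by 1.93 in sap3 (SE 0.28, adjusted p = 0.00229), or 3.66-fold and 3.81-fold (limma). In pooled RNA ACR9 was at 9.15 in LL and 7.15 in HL for WT, and at 8.53 and 7.5 for cml49. GASA6 (chromosome 1, 28053286 to 28054149), a small secreted peptide of the gibberellin-regulated GASA family, showed 8.16, 7.87 and 8.09 in WT in LL and 6.39 and 6.86 in HL. Its LL values in sap3 were 8.07 and 9.22, against HL values of 6.43 and 6.36, so that the single highest and lowest of the 9 values, at 9.22 and 6.36, were both from sap3. sap3_LL_2 at 5.74 lay below every HL array, and WT_HL_2 at 8.36 and sap3_HL_3 at 9.01 were high. GASA6 fell by 1.42 in WT (SE 0.29, adjusted p = 0.0127) and fell by 2.25 in sap3 (SE 0.32, adjusted p = 0.00179), and without WT_HL_1 the call in WT was lost (-1.65 to -1.18 over the arrays left out in turn, limma). The difference between the genotypes in this response was -0.83 (SE 0.43, adjusted p = 1) and did not pass. Pooled GASA6 signals went from 9.0 in LL to 6.17 in HL in WT and from 8.68 to 7.11 in cml49.

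AT4G23870 (chromosome 4, 12414230 to 12415049), a protein of unknown function, had 5.74, 6.24 and 5.76 in WT in LL against 4.48 and 4.30 in HL. Its sap3 values were 5.89 and 5.61 in LL and 4.32 and 4.56 in HL, with no overlap, and the arrays set apart had 6.10 in WT_HL_2, 4.69 in sap3_LL_2 and 5.39 in sap3_HL_3. By limma it fell by 1.52 in WT (SE 0.19, adjusted p = 0.000682) and fell by 1.31 in sap3 (SE 0.21, adjusted p = 0.00353). For the pools of AT4G23870, WT gave 6.21 in LL and 4.55 in HL, and cml49 gave 4.96 and 4.51, so the cml49 pool was already low in LL. AT5G63190, a protein with MA3 domains like those of translation initiation factors, is the single locus with a pair of probe sets, which the annotation places on opposite strands. The one on the plus strand (chromosome 5, 25345542 to 25348796) had 7.51, 8.19 and 7.63 in WT in LL and 6.46 and 6.39 in HL. In sap3 it had 7.67 and 7.82 in LL against 6.18 and 6.40 in HL, clear of each other, and the arrays set apart were at 8.23 in WT_HL_2, 6.76 in sap3_LL_2 and 7.85 in sap3_HL_3. It fell by 1.35 in WT (SE 0.20, adjusted p = 0.00205) and fell by 1.45 in sap3 (SE 0.22, adjusted p = 0.00276) (limma). The WT pools had 7.81 in LL and 6.14 in HL, and the cml49 pools 7.49 and 6.26. The one on the minus strand (chromosome 5, 25346729 to 25348386) fell by 0.93 in WT (adjusted p = 0.0174) but differed by -0.30 in sap3 (adjusted p = 0.521), and the WT call was lost without WT_HL_1, WT_HL_3 or WT_LL_2 (-1.04 to -0.84). Which of them reads the gene's own strand was not settled here.

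Further members fell in both genotypes. AT5G16110, without an assigned function, fell by 1.29 in WT (SE 0.21, adjusted p = 0.00388) and fell by 1.13 in sap3 (SE 0.23, adjusted p = 0.0149), and AT2G17880, a DnaJ-domain co-chaperone, fell by 1.18 in WT (SE 0.21, adjusted p = 0.00539) and fell by 1.31 in sap3 (SE 0.23, adjusted p = 0.00605) (limma). AT4G10910, also unassigned and dim with LL values of 3.27, 3.57 and 3.20 in WT, fell by 0.70 in WT (SE 0.18, adjusted p = 0.0345) and fell by 0.89 in sap3 (SE 0.19, adjusted p = 0.0194). Each had calls that 1 array decides: AT5G16110 in sap3 without any 1 of the 4 sap3 arrays (-1.18 to -1.08), AT2G17880 without WT_HL_3 in WT (-1.32 to -1.04) or sap3_HL_1 in sap3 (-1.62 to -1.00), and AT4G10910 in WT without WT_HL_1, WT_HL_3, WT_LL_1 or WT_LL_2 (-0.83 to -0.58) and in sap3 without sap3_HL_1, sap3_HL_2 or sap3_LL_3 (-1.08 to -0.70). ADF9, an actin depolymerising factor, fell by 0.90 in WT (adjusted p = 0.0429) and differed by -0.65 in sap3 (adjusted p = 0.194, limma), and its call was lost without any array but WT_LL_1 or WT_LL_3 (-1.04 to -0.63).

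**Figure D3:**
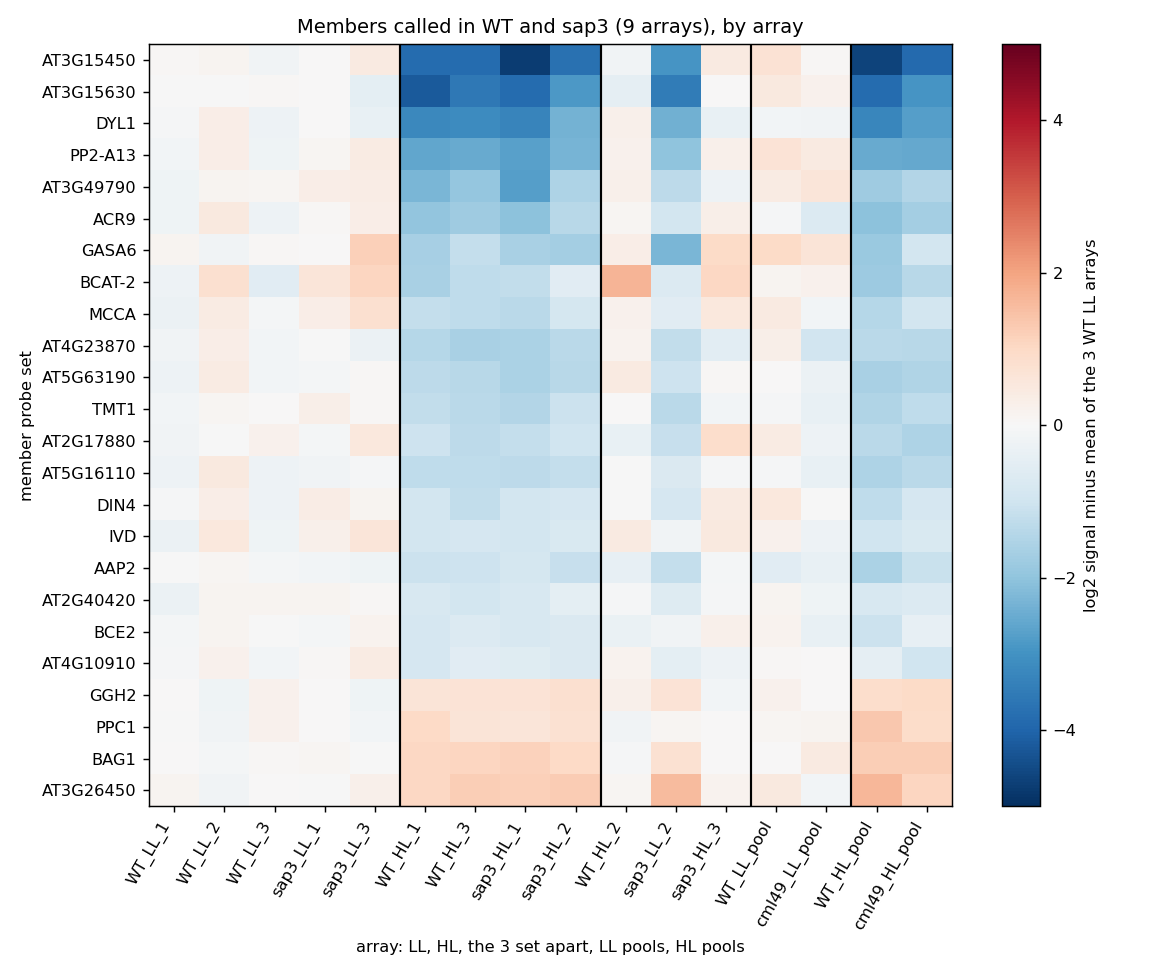
The 24 probe sets called in both genotypes (rows, from the largest fall to the largest rise) are shown in every array (columns, grouped by black lines into LL, HL, the 3 arrays set apart, LL pools and HL pools), coloured by log2 signal minus the mean of the 3 WT arrays in LL. The HL arrays and HL pools are blue for the 20 that fell and red for the 4 that rose, WT_HL_2 and sap3_HL_3 look like LL arrays, and sap3_LL_2 looks like an HL array except in BCE2, IVD and PPC1.

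In HL 4 members rose in both genotypes, by 0.67 to 1.13 in WT. AT3G26450 (chromosome 3, 9681298 to 9683434), a protein with an SRPBCC ligand-binding domain, had 6.21, 5.89 and 6.10 in WT in LL and 7.09 and 7.30 in HL. In sap3 it had 6.03 and 6.32 in LL against 7.24 and 7.32 in HL. HL arrays were above all LL arrays, and sap3_LL_2, at 7.64, was the highest single-replicate array, with WT_HL_2 at 6.17 and sap3_HL_3 at 6.26 at the LL level. AT3G26450 rose by 1.13 in WT (SE 0.16, adjusted p = 0.00151) and rose by 1.10 in sap3 (SE 0.18, adjusted p = 0.00355), or 2.19-fold and 2.14-fold (limma). In pooled RNA AT3G26450 was at 6.54 in LL and 7.71 in HL for WT, and at 5.92 and 7.16 for cml49. BAG1 (chromosome 5, 21152214 to 21154244), a co-chaperone that binds Hsp70, had 7.61, 7.49 and 7.65 in WT in LL and 8.60 and 8.64 in HL. The sap3 arrays read 7.69 and 7.56 in LL against 8.73 and 8.58 in HL, without overlap. The arrays set apart gave 7.52 in WT_HL_2, 8.35 in sap3_LL_2 and 7.60 in sap3_HL_3. BAG1 rose by 1.04 in WT (SE 0.14, adjusted p = 0.000963) and rose by 1.03 in sap3 (SE 0.15, adjusted p = 0.00207), or 2.06-fold and 2.04-fold (limma). Pooled BAG1 signals went from 7.60 in LL to 8.82 in HL in WT and from 8.05 to 8.80 in cml49.

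PPC1 (chromosome 1, 19884027 to 19888369), the phosphoenolpyruvate carboxylase that makes oxaloacetate for amino acid synthesis, was the 1 gene of carbon metabolism to pass among 16. It had 7.73, 7.58 and 7.96 in WT in LL and 8.74 and 8.42 in HL. In sap3 it had 7.77 and 7.61 in LL and 8.38 and 8.52 in HL. The light levels did not overlap, and here all 3 arrays set apart, at 7.59 in WT_HL_2, 7.84 in sap3_LL_2 and 7.78 in sap3_HL_3, lay in or near the LL range. PPC1 rose by 0.82 in WT (SE 0.17, adjusted p = 0.0122) and rose by 0.76 in sap3 (SE 0.18, adjusted p = 0.0321) by limma. Its call in WT was lost without WT_HL_1 (0.66 to 0.98), and that in sap3 without any sap3 array or WT_LL_1 (0.68 to 0.84). For the pools of PPC1, WT gave 7.87 in LL and 9.11 in HL, and cml49 gave 7.91 and 8.68. GGH2 (chromosome 1, 29593756 to 29596270), a hydrolase of folate polyglutamates, had 8.5, 8.23 and 8.66 in WT in LL and 9.10 and 9.16 in HL. The values of sap3 were 8.49 and 8.23 in LL against 9.13 and 9.25 in HL, clear of each other, and the arrays set apart had 8.70 in WT_HL_2, 9.13 in sap3_LL_2 and 8.34 in sap3_HL_3. It rose by 0.67 in WT (SE 0.17, adjusted p = 0.0317) and rose by 0.83 in sap3 (SE 0.18, adjusted p = 0.0195) by limma. Leaving out WT_HL_1, WT_HL_3, WT_LL_1 or WT_LL_2 ended the call in WT (0.55 to 0.77), and sap3_HL_1, sap3_HL_2 or sap3_LL_3 that in sap3 (0.70 to 0.96). The WT pools had 8.67 in LL and 9.34 in HL, and the cml49 pools 8.48 and 9.42.

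Further calls were made in 1 genotype, and their difference between genotypes did not pass. CIPK7, a kinase that works with calcineurin B-like calcium sensors, rose by 1.00 in WT (SE 0.18, adjusted p = 0.00657) and differed by 0.70 in sap3 (adjusted p = 0.0685, limma). The aquaporin PIP2A rose by 0.86 in WT (adjusted p = 0.0225) and differed by 0.69 in sap3 (adjusted p = 0.0944), the 1 call among 5 aquaporins. AT5G20700, of unassigned function, rose by 0.80 in sap3 (adjusted p = 0.0364) with 0.65 in WT (adjusted p = 0.0534). The light-harvesting gene CAB3 fell by 1.2 in sap3 (adjusted p = 0.0317) with -0.44 in WT (adjusted p = 0.401), and its probe set is the 1 member marked as cross-hybridising, so its close relatives cannot be told apart on it. The cytosolic glutamine synthetase GSR2 fell by 0.71 in sap3 (adjusted p = 0.0217) with -0.06 in WT (adjusted p = 0.889). Calls were lost for CIPK7 without WT_HL_1 (0.88 to 1.12), for PIP2A without WT_HL_1, WT_HL_3, WT_LL_1 or WT_LL_2 (0.81 to 0.91), for AT5G20700 without any array but sap3_LL_1 or WT_LL_2 (0.52 to 1.09), for CAB3 without sap3_HL_2, sap3_LL_3, WT_HL_1 or WT_HL_3 (-1.64 to -0.74), and for GSR2 without any sap3 array (-0.75 to -0.67).

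Most members that handle fructose or sense sugar did not pass the test, as was so for most probe sets of the array. The fructokinase FRK1, which commits fructose to metabolism, had 5.23, 5.42 and 5.32 in WT in LL and 6.36 and 5.60 in HL. In sap3 it had 5.33 and 5.08 in LL against 6.09 and 5.98 in HL. Every HL array was above every LL array, yet the differences of 0.66 in WT and 0.83 in sap3 missed the threshold (adjusted p = 0.0925 and 0.0601, limma). In the pools FRK1 was higher in HL by 0.63 in WT and 1.16 in cml49. The cytosolic fructose-1,6-bisphosphatase cyFBP, an enzyme of sucrose synthesis whose loss makes seedlings insensitive to fructose, differed by 0.35 in WT and 0.13 in sap3, and the glucose sensor HXK1 by 0.38 and 0.23, none past the threshold. Cytosolic aldolase FBA8 had 0.14 and 0.22, and transketolase TKL1 -0.03 and -0.18. Of the 13 sensing and signalling genes, CIPK7 and GPA1 passed in WT and 0 in sap3, against 9.13% and 7.57% of all probe sets. GPA1, the alpha subunit of the heterotrimeric G protein, fell by 0.56 in WT (SE 0.14, adjusted p = 0.0329) and differed by -0.37 in sap3 (adjusted p = 0.213), and the WT call was lost without WT_HL_1, WT_HL_3, WT_LL_1 or WT_LL_2 (-0.62 to -0.50). Its regulator RGS1 differed by -0.21 and -0.12, the extra-large G proteins XLG1, XLG2 and XLG3 by -0.11, 0.10 and -0.25 in WT, and the ethylene signalling kinase CTR1 by -0.47 in WT and -0.68 in sap3 (adjusted p = 0.165 and 0.0713), none of them called.

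Other groups held no or almost no calls, where the background was 9.13% of all probe sets in WT and 7.57% in sap3. Whether the shares of these small groups differ from it was not tested. In nitrogen assimilation and photorespiration, 0 of 17 passed in WT and 1, GSR2, in sap3, with medians of 0.07 and 0.05. Its smallest adjusted p-values in WT belonged to the peroxisomal aminotransferase AGT (0.49, adjusted p = 0.0585), the glutamine synthetase GLN1;1 (0.50, adjusted p = 0.0784) and the ferredoxin-dependent glutamate synthase GLU1 (0.49, adjusted p = 0.111), all higher in HL without passing (limma). Genes of the cell wall and sugar nucleotides gave 0 of 13 in either genotype, with the smallest adjusted p in WT for PMEPCRF, a pectin methylesterase (0.58, adjusted p = 0.0844). The cellulose synthases CESA1 (-0.12 in WT and 0.09 in sap3) and CEV1 (-0.07 and 0.10) did not pass either. The 5 plastid genes gave 0 in WT and CAB3 in sap3. A p that misses the threshold does not show that these genes did not respond, since standard errors of 0.13 to 0.28 leave room for differences too small to call.

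Of the 5 members with the highest mean signal 4 passed no test, and signals of different probe sets are not compared as transcript amounts. PRXR1, a peroxidase, had 12.17, 12.15 and 12.26 in WT in LL and 12.02 and 11.93 in HL, and in sap3 12.17 and 11.94 in LL against 11.98 and 12.23 in HL. TKL1 had 11.80, 11.75 and 12.01 in LL against 11.93 and 11.72 in HL in WT, and 11.88 and 11.85 against 11.68 and 11.68 in sap3. For POM1, a chitinase-like protein of cell wall formation, the values were 11.49, 11.51 and 11.76 in LL against 11.5 and 11.36 in HL in WT, and 11.64 and 11.55 against 11.43 and 11.71 in sap3. In each of these 3 the light levels overlapped within at least 1 genotype. The metallothionein MT3 had 11.04, 11.31 and 11.38 in LL against 11.13 and 11.24 in HL in WT, and 11.15 and 11.12 against 11.25 and 11.23 in sap3, with overlap in WT. AT5G20700 had 10.84, 11.10 and 10.81 in LL against 11.55 and 11.59 in HL in WT, and 11.06 and 10.50 against 11.58 and 11.59 in sap3, and was the 1 of the 5 whose light levels stayed apart in both genotypes. Among the arrays set apart, taken in the order WT_HL_2, sap3_LL_2, sap3_HL_3, the signals were 12.29, 12.13 and 11.89 for PRXR1, and 11.03, 11.44 and 10.51 for AT5G20700, with TKL1, POM1 and MT3 inside 11.16 to 11.92.

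**Figure D4:**
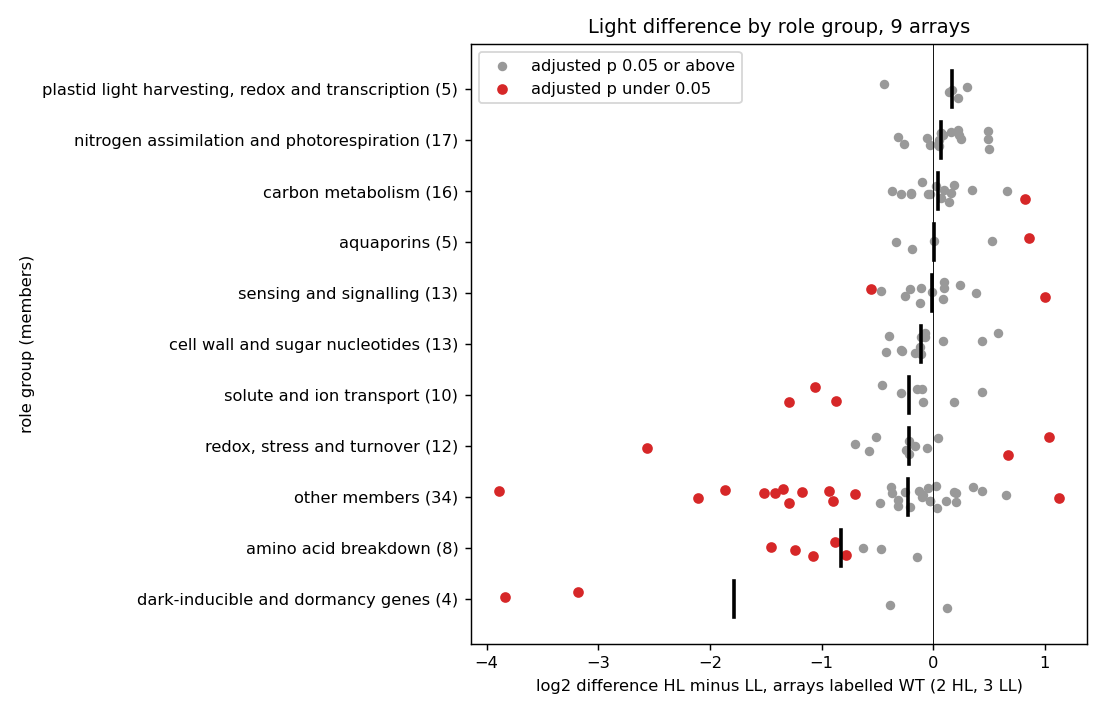
Log2 difference between HL and LL in the arrays labelled WT (x axis, 2 HL and 3 LL arrays) for each member, by role group (y axis, number of members in brackets), with red for an adjusted p under 0.05 by limma, grey for the rest and a black bar for the group median. The medians of dark-inducible and dormancy genes (-1.79, 4 members of which 2 passed) and amino acid breakdown (-0.83) lie left of the others, which stand between -0.23 and 0.17.

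The members divide by a second annotation that the rule did not use. The term for the response to sucrose is carried by 86 of the 137 (62.8%, against 0.851% of the 23745 probe sets with any process term) and the term for water transport by 52 (38.0% against 0.615%), with 6 carrying both and 5 neither. Of the 20 members that fell in both genotypes, 19 carry the sucrose term and 1, AAP2, does not. All 4 that rose in both carry the water transport term, of which PPC1 carries the sucrose term as well. The median light difference in WT was -0.24 over the members with the sucrose term and 0.07 over those without it, and -0.25 in the 85 without the water transport term and 0.04 in the 52 with it. These are descriptions of a split seen after the values were known, and the difference was not tested. Of the 14 members with experimental evidence for the fructose term, DYL1 and GASA6 fell in WT, and CAB3 fell with them in sap3. Of the 123 with computational evidence alone, 21 fell in each genotype. The background for lower was 4.14% of all probe sets in WT and 3.47% in sap3. Whether these shares differ was not tested.

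For the labelled genotypes, 0 members passed the test for a difference between sap3 and WT, in LL, in HL or in the size of the light response, in the 12 or in the 9 arrays (limma). In the 9 arrays 0% of all probe sets were called in LL, 0.00352% in HL and 0% for the difference of the light responses. At an unadjusted p under 0.05 there were 4, 2 and 3 members in the 9 arrays, which is 2.92%, 1.46% and 2.19%, against 6.01%, 4.48% and 4.20% of all probe sets. In the 12 arrays as labelled there were 1, 2 and 3, or 0.73%, 1.46% and 2.19%, against 4.52%, 2.86% and 2.62%. These comparisons share their arrays, so they do not support one another.

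In LL the smallest p among the members in the 9 arrays belonged to SEN1, with 8.65, 9.61 and 8.89 in WT and 9.51 and 10.33 in sap3. These groups overlap, and the difference of 0.87 had an adjusted p = 0.737 (limma). Its HL values were 8.58 and 8.75 in WT and 8.59 and 9.07 in sap3, and the arrays set apart had 9.23 in WT_HL_2, 9.33 in sap3_LL_2 and 10.19 in sap3_HL_3. MSL9, a mechanosensitive channel of the plasma membrane with a dim signal, had 1.70, 1.88 and 2.11 in WT and 2.27 and 2.35 in sap3 in LL, which do not overlap, a difference of 0.41 (adjusted p = 0.746). In HL MSL9 had 2.12 and 2.05 in WT and 1.88 and 1.78 in sap3, in the opposite order, with 2.24 in WT_HL_2, 2.22 in sap3_LL_2 and 2.75 in sap3_HL_3, so both arrays labelled HL that were set apart exceeded the HL arrays of their genotype. BCAT-2 came next in LL at 0.84 (adjusted p = 0.814).

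In HL the smallest p was that of GSR2, at 6.93 and 6.69 in WT and 6.30 and 6.36 in sap3. The groups do not overlap, and the difference of -0.48 had an adjusted p = 0.996 (limma). In LL GSR2 had 6.78, 7.0 and 6.82 in WT and 7.08 and 7.0 in sap3, which overlap, and the arrays set apart had 7.18 in WT_HL_2, 6.92 in sap3_LL_2 and 6.70 in sap3_HL_3. RGP5, a protein that binds sugar nucleotides for wall polymers, had 4.58 and 4.72 in WT and 5.12 and 5.19 in sap3 in HL and 5.06, 5.12 and 5.03 in WT and 5.10 and 4.55 in sap3 in LL. It was apart by genotype in HL (0.50) and not in LL, with 5.02 in WT_HL_2, 4.83 in sap3_LL_2 and 4.94 in sap3_HL_3. AT4G37220, annotated as a cold acclimation protein, had 3.15 and 2.66 in WT and 3.20 and 3.42 in sap3 in HL, a difference of 0.41, and 3.21, 3.17 and 3.30 in WT and 3.17 and 3.23 in sap3 in LL, with 3.29 in WT_HL_2, 3.03 in sap3_LL_2 and 3.61 in sap3_HL_3. Its difference in HL comes with WT_HL_3 as the lowest array, and both RGP5 and AT4G37220 had an adjusted p = 0.996 (limma). The response to light differed most, by p, for GSR2 (-0.65), RGP5 (0.75) and MSL9 (-0.67), each with an adjusted p = 1.

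With the 12 arrays as labelled, GSR2, AT4G37220 and RGP5 again had the smallest p-values in HL, GSR2, UDG4 and RGP5 those for the difference of the light responses, and UDG4, AT1G29660 and AT1G17500 those in LL. UDG4, a UDP-glucose dehydrogenase, had 3.22, 3.19 and 3.26 in WT and 3.21 and 2.69 in sap3 in LL, with sap3_LL_2 at 2.71, a difference of -0.35. Its 2 low arrays in LL were sap3_LL_2 and sap3_LL_3, and in HL it had 2.87 and 2.78 in WT and 2.99 and 2.99 in sap3, with 2.94 in WT_HL_2 and 3.09 in sap3_HL_3. AT1G29660 had 7.77, 7.44 and 7.86 in WT and 7.81 and 8.14 in sap3 in LL, where sap3_LL_2 at 8.87 was the highest and the others overlapped, a difference of 0.58. In HL AT1G29660 had 8.13 and 8.13 in WT and 7.98 and 8.83 in sap3, with 7.71 in WT_HL_2 and 8.00 in sap3_HL_3. AT1G17500, an ion-pumping ATPase by its annotation, had 6.33, 5.71 and 5.52 in WT and 5.99 and 5.0 in sap3 in LL, where sap3_LL_2 at 4.61 was the lowest, a difference of -0.65. Its HL values were 5.45 and 5.34 in WT and 5.34 and 5.77 in sap3, with 5.81 in WT_HL_2 and 5.88 in sap3_HL_3. All 3 differences in LL had an adjusted p = 0.971 (limma), and without sap3_LL_2 they were -0.27, 0.28 and -0.36 in the 9 arrays.

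In the pooled arrays, too, more members were lower than higher in HL, with 1 array a group and so no test. Between the WT pools, 27 members differed by at least 1 in log2, which is 19.7% against 7.75% of all probe sets, 23 lower (16.8% against 3.36%) and 4 higher (2.92% against 4.39%). Between the cml49 pools, 14 did so (10.2% against 6.36%), 11 lower (8.03% against 2.9%) and 3 higher (2.19% against 3.45%). In both pairs 12 members passed that size in the same direction (8.76% against 3.97%), 10 lower (7.30% against 1.69%) and 2 higher (1.46% against 2.28%), and 0 passed it in opposite directions. The median light difference over the members was -0.14 in the WT pools and -0.05 in cml49. All 24 members called in both genotypes of the 9 arrays had the same sign in both pool pairs, with BCE2 at only -0.02 in cml49. Of these 24, 21 were past 1 in WT and 11 in cml49. The difference was larger in the WT pools for 21 of the 24, and over all probe sets, too, more passed 1 in the WT pools. Of the 20 that fell, the cml49 pool was below the WT pool in LL for 17 and above it in HL for 16. These counts were not made for all 1670 probe sets called in both genotypes (718 lower). They are therefore not read as particular to the members. Over all members, the cml49 pool was above the WT pool for 32.1% in LL and 62% in HL. The shares over all probe sets were 50.4% and 49.3%. With 1 array a group it was not tested whether cml49 and WT differ in their light response. Direct comparison of the pools found 1 member past 1 in LL, AT4G23870 (-1.25; 0.73% against 1.3% of all probe sets), and 0 in HL (background 1.07%, of which 0.387% higher and 0.687% lower). PDR7, a transporter of the ABC family, passed 1 in the cml49 pools alone (-1.2), at 3.70 in LL and 2.50 in HL, against 2.96 and 2.93 in WT. FRK1 did so in the other direction (1.16, against 0.63 in the WT pools).

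**Figure D5:**
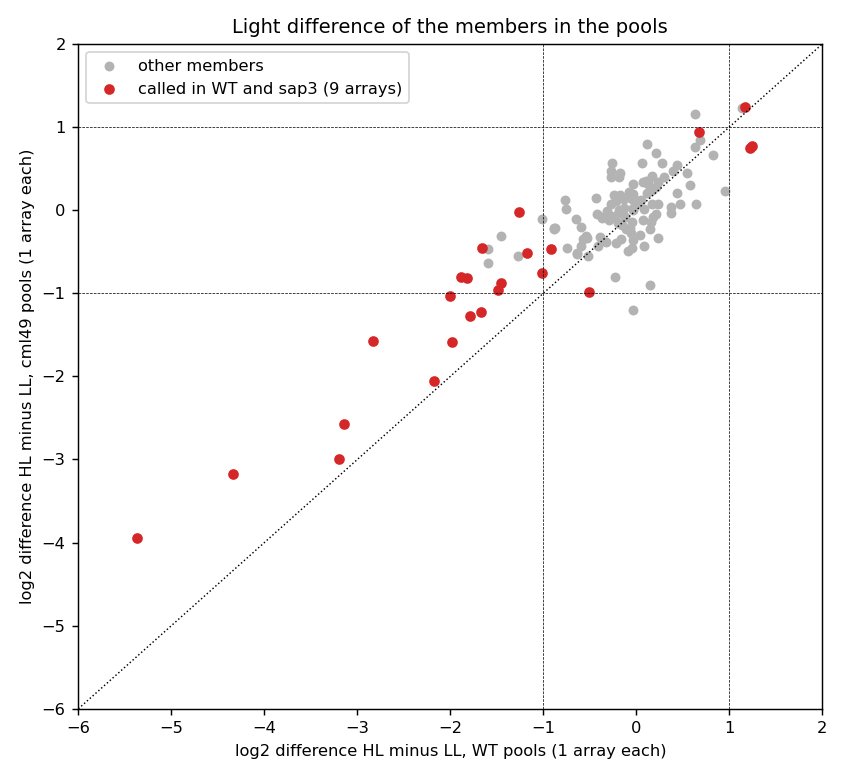
Each member is placed by its log2 difference between HL and LL in the WT pools (x axis) and the cml49 pools (y axis), 1 array each, with red for the 24 called in both genotypes of the 9 arrays, a dotted line of equality and dashed lines at -1 and 1. The red points that fell lie mostly above the dotted line, from AT3G15450 at -5.37 in WT and -3.95 in cml49 upward, so their difference was larger in the WT pools.

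The arrays set apart read as the other light level in most of these genes. Of the 24 members called in both genotypes, 24 lay nearer the LL than the HL mean of their genotype in WT_HL_2, and 23 in sap3_HL_3. In sap3_LL_2, 21 lay nearer the HL mean, and the 3 nearer the LL mean were BCE2, IVD and PPC1. The other 9 arrays had 24 of 24 on the side of their label, which the choice of members fixes. DIN2 at 7.37, LKR/SDH at 8.58 and BCAT-2 at 7.95 were higher in WT_HL_2 than in any of the other 15 arrays.

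Outside the set, lists of known sugar genes showed both directions. The background in the 9 arrays was 9.13% of all probe sets in WT, 4.99% higher and 4.14% lower. In sap3 it was 7.57%, 4.09% higher and 3.47% lower. The lists are small and chosen by hand, and their shares were not tested against this background. Of 22 further fructose and sucrose enzymes, 3 rose and 2 fell in WT and 2 rose and 3 fell in sap3 in the 9 arrays, with a median of -0.10 in WT against -0.02 over all probe sets. The sucrose phosphate synthase SPS4F rose by 1.88 (adjusted p = 0.000158), SPS1F by 0.74 (adjusted p = 0.0113) and the vacuolar invertase BFRUCT4 by 0.90 (adjusted p = 0.00735) in WT, while the cytosolic invertase CINV1 fell by 1.14 (adjusted p = 0.00109, limma). Of 14 further sugar transporters, 1 rose and 3 fell in WT and 1 rose and 5 fell in sap3. The plastid glucose phosphate transporter GPT2 rose by 4.73 (adjusted p = 1.35e-06), and the sucrose exporter SWEET12 and the sugar importers STP1 and STP14 fell by 1.82, 1.24 and 1.03 (adjusted p = 9.04e-05, 0.00583 and 0.00125, limma). Of 13 genes of sugar sensing and SnRK1, 2 rose and 2 fell in each genotype: the transcription factors bZIP11 (1.61 in WT) and bZIP44 (0.75) rose, and bZIP63 (-1.93) and bZIP1 (-1.07), both linked to SnRK1 signalling under energy shortage, fell (limma). The 4 starvation genes left out by name fell as well, AKINBETA1 by 2.61, TPS9 by 2.07, DIN10 by 2.00 and ASN1 by 1.23 in WT (limma, adjusted p = 9.47e-05, 0.000417, 0.00245 and 0.0441). With all 12 arrays as labelled 0 genes passed in any of the lists.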

How the data were processed

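Transcripts of Arabidopsis rosettes were measured on 16 one-colour Affymetrix gene arrays. The deposited values are log2 signals per probe set, which the authors summarised and normalised with RMA in Affymetrix Expression Console, per the submitters' processing notes. RMA quantile-normalises arrays, so a shift common to all transcripts is not seen. The members, role groups and gene lists were chosen with earlier results of these data known. Process terms and coordinates came from the authors' deposited annotation. Loci came from matching its accessions and symbols to RefSeq genes, and gene names were listed by locus. Arrays were matched to groups by their labels, and 16 per-sample columns of the deposited workbook were not used.

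Only the 28403 main-category probe sets entered. Differences between 4 group means were fitted with limma (version 3.58.1 in R 4.3.3), with Benjamini-Hochberg adjustment over all of them and calls at an adjusted p under 0.05, in 12 arrays and in 9. The fit was tested on simulated data. In the simulated light comparison of WT over 28403 genes in 9 arrays it recovered 48% of changes of 1 and 88% of changes of 2 in log2. Pool differences were called past a size of 1 in log2, with no test. Tables and figures were made with Python 3.11.15, pandas 2.3.3 and matplotlib 3.10.9.

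Values in every array are given for members called in both genotypes (up to the 12 largest changes each way), the 5 with the highest mean and, per genotype comparison, the 3 with the smallest p. Others are named by role. Alternatives were a mean-dependent prior, array weights, the replicate number as a block, new quantile normalisation, a filter on dim probe sets and each array left out in turn. Promoter motifs and sequences were not used here. The number of arrays limits the precision.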

Additional observations from a re-analysis of the deposited data

How the results depend on the processing

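With the 12 arrays as labelled, 0 members were called in each of the 5 comparisons under every alternative run, and the same holds for the genotype comparisons and the difference of the light responses in the 9 arrays. The 29 members called for light in WT in the 9 arrays became 34 with a mean-dependent prior, 32 with array weights, 29 with new quantile normalisation and 34 without dim probe sets, where 119 members were tested. Leaving out 1 array gave 15 to 29, and with a lone array in a group that array is assumed to vary like the other groups. The 29 in sap3 became 38, 25, 29 and 36 in the same order, and 15 to 29 with 1 array left out. Same-numbered arrays, each as its deviation from its group mean, correlated at -0.04 to 0.08 over 10 pairs in the 9 arrays. In the 12 they correlated at -0.63 to 0.53 over 18 pairs, with 4 over 0.1. In groups of 2 arrays the deviations mirror each other, so pairs in the 9 arrays repeat one another. Whether replicate numbers pair the samples cannot be settled by them. With the replicate number as a block, 22 members were called in WT and 26 in sap3, beside 1973 and 1686 of all probe sets. The calls over all probe sets moved in the other alternatives too. In WT the 2594 became 3159 with the prior, 3204 with array weights, 2612 with new normalisation and 3278 without dim probe sets. In sap3 the 2150 became 2689, 1760, 2226 and 2832. No called member reversed its direction in any alternative. At a size of 1.5 in place of 1, 15 members passed between the WT pools, 7 between the cml49 pools and 0 between the LL pools of cml49 and WT. Centring each array on its median gave 27, 15 and 1, and leaving out dim probe sets 25, 12 and 1. The share of all probe sets was not taken for these pool settings. The planned search for promoter motifs was not run, as no promoter sequence was used here.

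The 3 arrays set apart decide whether any member is called, and they were chosen by their light state. The length of the high-light treatment differs between the labels. SAP3 follows the genotype labels in the 9 arrays but not in sap3_LL_2 (6.98). It does not follow them in WT_HL_2 either, where 3.94 lay below sap3_LL_1 and sap3_LL_3 (4.21 and 4.05). CML49 goes against the labels in the pools, so a comparison by genotype holds only as labelled. The fit in 9 arrays recovered 42% of 50 simulated falls of 1 in log2 for the WT light comparison, over 28403 genes. The simulation changed far fewer genes than the 2594 probe sets called in WT, and recovery depends on that share. How many changes of that size were missed in these data was not tested.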
